A study of Mus musculus with 8 samples.

Results

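The two-pore domain potassium channels (K2P channels, gene symbols Kcnk) were examined in ribosome-bound and total RNA of the mouse ventral pallidum. The rule names the members and sets no threshold on a measured value: Kcnk1, Kcnk2, Kcnk3, Kcnk4, Kcnk9, Kcnk10, Kcnk12 and Kcnk13. Of these 8 genes, 6 have a row among the 14353 genes of the deposited table. Kcnk9 and Kcnk12 were not analysed here, and of the other 6 Kcnk genes of the annotation 0 have a row.

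All mice were homozygous for VGluT2-Cre and heterozygous for the tagged Rpl22 allele (RiboTag), were 9 to 16 weeks old and received no treatment. The study pooled the ventral pallidum of 38 mice, 15 male and 23 female, into 4 pools of 7 to 11 mice, which the labels name VP1.6, VP2.2, VP2.6 and, as the last, VP2.11. From the homogenate of each pool, translating ribosome affinity purification (TRAP) with an antibody against the hemagglutinin tag gave ribosome-bound RNA of cells that express VGluT2-Cre, and a portion taken before it gave RNA of the whole tissue (INPUT). The labels call this sample input, while 1 sentence of the study's methods speaks of an unbound fraction, which would be tissue RNA left after the purification, so what INPUT holds follows the labels here. The comparison is thus of 4 TRAP with 4 INPUT libraries, every animal carries both alleles, and each pool stands on both sides. In such bulk RNA, fewer cells of a type and less RNA per cell cannot be told apart.

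K2P channels pass potassium at rest and set the resting potential and input resistance of a neuron. Each subunit holds a pair of pore loops, and subunits join as dimers so that the pore is lined by the loops of both. TWIK-1 (Kcnk1) gives weak currents, TREK-1 (Kcnk2), TREK-2 (Kcnk10) and TRAAK (Kcnk4) open to membrane stretch, heat and lipids, TASK-1 (Kcnk3) is closed by external acid, and THIK-1 (Kcnk13) is known as the main resting potassium channel of microglia.

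The selectivity filter of the pore loops was read from the coding sequence, as a stretch that the 6 members share and in which they differ. Each line below gives 30 bases of coding sequence from the GENCODE M21 transcripts (GRCm38), 5′ to 3′. The capitals mark the codons glycine, a middle residue and glycine of each pore loop. The first loop reads:
Kcnk1: gtgctctccaccacaGGCTATGGCcacacg
Kcnk2: gttatcacaaccataGGATTTGGAaacatc
Kcnk3: gtcatcaccaccatcGGCTATGGTcatgcg
Kcnk4: atcatcactaccatcGGCTATGGCaatata
Kcnk10: gtcatcacaaccataGGGTATGGGaatatt
Kcnk13: gtggtttctaccataGGGTTTGGGatgaca
The second loop, shown for Kcnk1, Kcnk2, Kcnk3, Kcnk4 and Kcnk10, reads:
Kcnk1: tccctgagcaccatcGGCCTGGGGgactat
Kcnk2: actctgacgaccattGGATTTGGAgactac
Kcnk3: accctcaccaccatcGGCTTCGGCgactat
Kcnk4: actctcaccactgtaGGCTTTGGCgattat
Kcnk10: acgctgaccacagtaGGCTTTGGTgatttt

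In the first loop the middle codon is tyrosine in Kcnk1, Kcnk3, Kcnk4 and Kcnk10 and phenylalanine in Kcnk2 and Kcnk13. In the second loop it is leucine in Kcnk1 and phenylalanine in Kcnk2, Kcnk3, Kcnk4 and Kcnk10. In all 6 genes an intron interrupts the first of these windows after base 16, which is the first base of the first glycine codon, so the site of that intron is common to all members here. The length of the intron is not: it runs from 127 bp in Kcnk4 to 94721 bp in Kcnk13. The second window lies within 1 exon in each of the genes shown for it. At the second loop Kcnk4 and Kcnk10 were the most alike pair among those shown, with 25 of 30 bases identical. Kcnk1 with Kcnk3 and Kcnk3 with Kcnk4 followed, at 24 of 30 each.

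The levels are those of the deposited table, on the log2 scale of CPM, a gene's reads scaled to a common library size, and an adjusted p under 0.05 in limma with the pool as a block is called a change. TRAP libraries held more of the markers of the labelled cell type than INPUT. The 4 glutamatergic markers, among them Slc17a6 (the vesicular transporter VGluT2), summed to 264 to 369 CPM in TRAP and 41.1 to 87.8 CPM in INPUT, and 4 of 4 were called higher. In TRAP 4 of 5 microglia, 4 of 5 astrocyte and 4 of 5 oligodendrocyte markers were called lower. So were 4 of 4 striatal, 2 of 4 GABAergic and 2 of 4 cholinergic neuron markers. The markers of these lists that were not called were split in direction. Chat, Slc5a7, Mag and Gad1 had log2 fold changes of 0.70, 0.81, 0.61 and 0.30. Gad2, Aldh1l1 and Csf1r had -0.05, -0.27 and -0.49. Of 4 oligodendrocyte precursor markers 2 were lower and 1 was higher, and of 4 endothelial and pericyte markers 1 was higher. Steps of whole reads in low genes gave 12.95 M (TRAP) and 39.2 M (INPUT) reads in VP2.2 and 13.04 M and 25.9 M in VP2.6, and the depth of VP1.6 and VP2.11 is unknown because of rounding. Whole reads were found only as differences within a pool, and libraries of a pool deviated in opposite directions from the means of their fractions. The level of each library may thus carry a shift or adjustment by pool, which no source used here states, and the spread of levels between libraries is less secure than the difference within a pool.

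Of the 6 members, 2 changed: Kcnk4 (TRAAK) was higher in TRAP and Kcnk13 (THIK-1) was lower. Kcnk1, Kcnk2 and Kcnk3, by far the more abundant members, were each lower in TRAP by mean but did not pass the test, and Kcnk10 went up in 2 pools and down in 2. Of 14249 genes tested with the block, 32.2% were called in either direction, 15.4% higher and 16.8% lower in TRAP, so 2 of 6 members is a share near the background. Exons of Kcnk1, Kcnk2 and Kcnk3 overlap antisense genes with no row (Gm45875, A430027H14Rik and Gm9899). Whether reads from these overlaps were left out as ambiguous or counted with the members cannot be told here. The median log2 fold change was -0.24 over the 6 members and -0.05 over all genes tested. Groups stood apart, with every TRAP library on 1 side of every INPUT library, for 5 of the 6 members and for 47.7% of all genes.

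**Figure D1:**
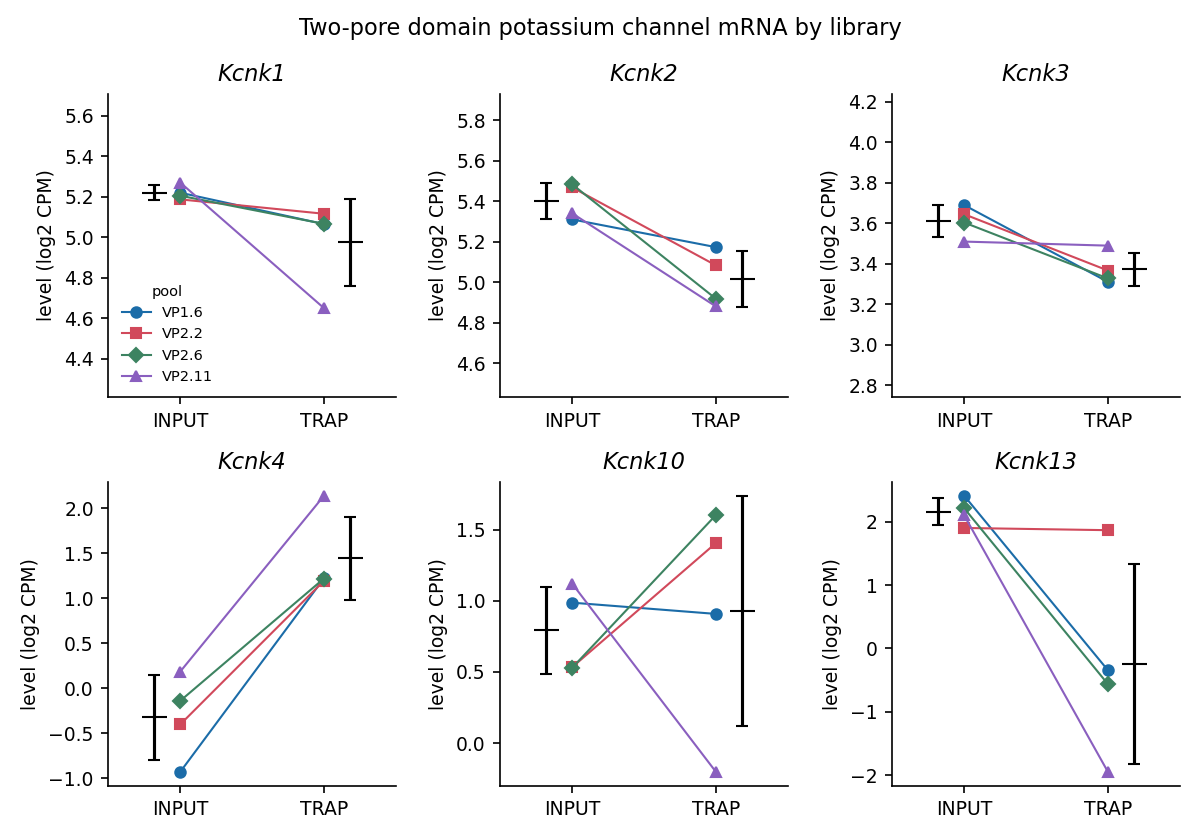
Level of each K2P gene in log2 CPM (vertical axis, scale differing between panels) in the INPUT and TRAP library of each pool, joined by a line, with the mean and SD of 4 libraries as black bars. The lines of Kcnk4 all rise, those of Kcnk13 fall in VP1.6, VP2.6 and VP2.11 and are flat in VP2.2 (difference -0.04), and those of Kcnk10 cross.

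Kcnk1 encodes TWIK-1, whose small surface current has been tied to its rapid recycling into endosomes. The gene (ENSMUSG00000033998) lies on chromosome 8 at 125995170-126030685, plus strand. Its level was 33.5, 34.7, 33.5 and 25.1 CPM in TRAP of the pools VP1.6, VP2.2, VP2.6, VP2.11, and 37.3, 36.4, 36.9 and 38.6 CPM in INPUT. Every TRAP library was below every INPUT library, and VP2.11 held both the lowest TRAP and the highest INPUT level. The means were 31.7 ± 4.43 CPM in TRAP against 37.3 ± 0.93 CPM in INPUT (SD, n = 4 each). That made a mean log2 difference of -0.25 (95% interval -0.73 to 0.24), with an adjusted p of 0.43 in limma with the block and 0.17 without it. The difference was -0.62 in VP2.11 and between -0.16 and -0.07 in the other pools, so much of the mean came from 1 pool.

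Kcnk2 encodes TREK-1, a stretch-, heat- and lipid-gated channel that Gq-coupled receptors inhibit. It lies on chromosome 1 at 189207930-189402273, minus strand (ENSMUSG00000037624). TRAP levels were 36.1, 33.9, 30.2 and 29.5 CPM in the pools VP1.6, VP2.2, VP2.6, VP2.11. INPUT levels were 39.7, 44.3, 44.7 and 40.5 CPM in the same order. The TRAP libraries all lay below the INPUT libraries, and the difference was negative in 4 of 4 pools, from -0.56 in VP2.6 to -0.14 in VP1.6. The means were 32.4 ± 3.12 CPM in TRAP and 42.3 ± 2.57 CPM in INPUT (SD, n = 4 each). TRAP minus INPUT was -0.39 on the log2 scale (95% interval -0.86 to 0.09). Limma's adjusted p was 0.20 with the block and 0.028 without it, where 47.9% of all genes were called, so the call for Kcnk2 depends on the pairing of libraries by pool.

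Kcnk3 encodes TASK-1, an acid-sensitive channel that volatile anaesthetics open and Gq signalling closes. It lies on chromosome 5 at 30588170-30625271, plus strand (ENSMUSG00000049265). It had 9.92, 10.3, 10.0 and 11.2 CPM in TRAP of the pools VP1.6, VP2.2, VP2.6, VP2.11, against 12.9, 12.5, 12.2 and 11.4 CPM in INPUT. The groups did not overlap, but in VP2.11 the libraries nearly met (difference -0.02). The means were 10.4 ± 0.59 CPM in TRAP against 12.2 ± 0.64 CPM in INPUT (SD, n = 4 each). This is a log2 fold change of -0.24 (95% interval -0.82 to 0.35), and limma's adjusted p was 0.53 with the block and 0.20 without it. The interval leaves room for a change in either direction.

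Kcnk4 encodes TRAAK, a mechanosensitive channel placed at nodes of Ranvier in other neurons. It lies on chromosome 19 at 6923966-6934515, minus strand (ENSMUSG00000024957), and its exons overlap those of Catsperz on the same strand. Catsperz has no row. The study counted unambiguous reads only, so reads from the overlap may have been left out rather than counted for Kcnk4. The level of Kcnk4 is thus uncertain, also per length. TRAP levels were 2.33, 2.29, 2.33 and 4.41 CPM in the pools VP1.6, VP2.2, VP2.6, VP2.11. INPUT levels were 0.526, 0.758, 0.909 and 1.14 CPM. Every TRAP library lay above every INPUT library, and VP2.11 was highest in both fractions. The means of 2.84 ± 1.04 CPM in TRAP and 0.833 ± 0.257 CPM in INPUT (SD, n = 4 each) are both low. Of the levels, 4 in TRAP and 1 in INPUT were over 1 CPM, so the gene passed the filter of 3 libraries over 1 CPM through TRAP.

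The log2 fold change of Kcnk4 was 1.76 (standard error 0.57, 95% interval 0.54 to 2.99), a 3.40-fold higher level in TRAP, and it was higher in 4 of 4 pools, by 1.36 in VP2.6 to 2.15 in VP1.6. Limma's adjusted p was 0.029 with the block and 0.0037 without it. Across the 12 alternatives it ran from 1.04, on the scale of log2(CPM + 1), to 2.79, with quantile normalization. Leaving out any 1 of the 4 pools left a log2 fold change of 1.64 to 1.90 and raised the adjusted p to 0.059 to 0.094. In VP2.6 the difference corresponded to 35 reads in TRAP and 27 in INPUT, from libraries of 13.04 M and 25.9 M reads. With so few reads, the size of the change was known within a wide interval.

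Kcnk10 encodes TREK-2, a close relative of TREK-1 with similar gating. It lies on chromosome 12 at 98429437-98578310, minus strand (ENSMUSG00000033854). Levels were 1.88, 2.65, 3.04 and 0.869 CPM in TRAP of the pools VP1.6, VP2.2, VP2.6, VP2.11, and 1.98, 1.448, 1.444 and 2.17 CPM in INPUT. The groups overlapped: the highest and the lowest of the 8 libraries were both TRAP. The means were 2.108 ± 0.957 CPM in TRAP against 1.76 ± 0.373 CPM in INPUT (SD, n = 4 each). Averaged over pools, TRAP minus INPUT was 0.14 on the log2 scale (95% interval -1.09 to 1.36), with an adjusted p in limma of 0.88 with the block and 0.81 without it. The pools differed from each other, at 1.07 in VP2.6 and -1.32 in VP2.11, and leaving out VP2.2 or VP2.6 turned the sign of the mean, to -0.11 and -0.18. Large changes in either direction lie within the interval.

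Kcnk13 encodes THIK-1, which in microglia sets the resting potential and supports their ramified form and surveillance. It lies on chromosome 12 at 99964499-100062682, plus strand (ENSMUSG00000045404). TRAP levels were 0.787, 3.65, 0.676 and 0.259 CPM in the pools VP1.6, VP2.2, VP2.6, VP2.11. INPUT levels were 5.32, 3.74, 4.63 and 4.29 CPM. TRAP VP2.2 stood next to its own INPUT library, while the other TRAP libraries were far below all INPUT libraries, and the groups did not overlap. The means were 1.34 ± 1.55 CPM in TRAP against 4.49 ± 0.66 CPM in INPUT (SD, n = 4 each). Over 1 CPM were 1 TRAP and 4 INPUT libraries, so the gene passed the filter through INPUT.

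The log2 fold change of Kcnk13 was -2.40 (standard error 0.63, 95% interval -3.75 to -1.05), a 5.29-fold lower geometric mean in TRAP. Limma's adjusted p was 0.0099 with the block and 0.012 without it. The differences within pools were -2.75 in VP1.6, -0.04 in VP2.2, -2.78 in VP2.6 and -4.05 in VP2.11. Without VP2.2 the log2 fold change was -3.19 (adjusted p from limma 0.0054), and without VP2.11 it was -1.85 (0.035). The reads behind the differences were 40 in TRAP and 125 in INPUT of VP2.2, and 11 and 156 in VP2.6. Across 12 alternative fits the call was kept, with log2 fold changes from -3.19 to -1.42 and adjusted p from limma from 0.00038 to 0.036. Each of these fits drew the variance of Kcnk13 toward that of other genes, which lowered its standard error in the fit with the block. The SD of its differences within pools was 1.69, and a test on these differences alone was not run.

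**Figure D2:**
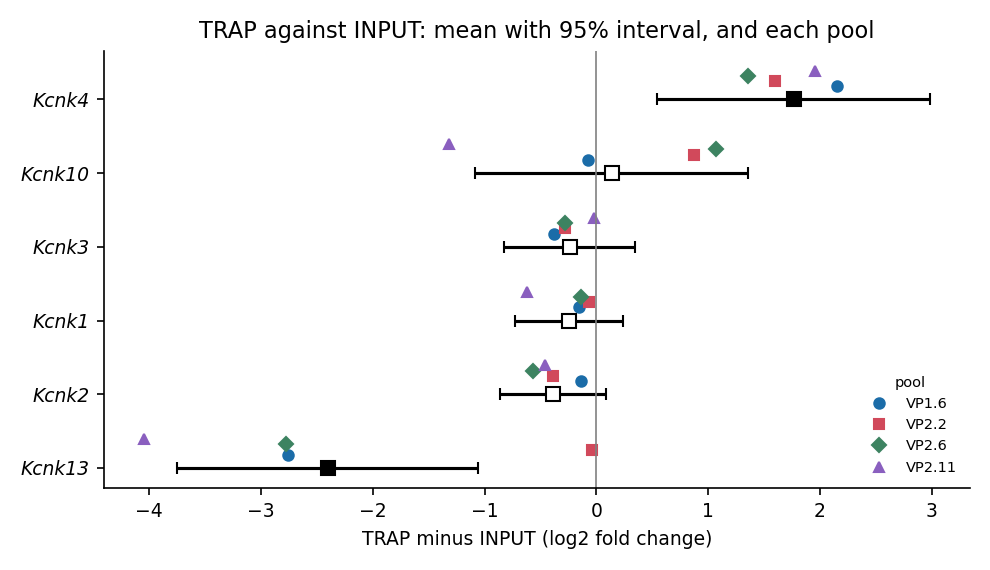
TRAP minus INPUT log2 fold change of each K2P gene (horizontal axis), as the mean over 4 pools with its 95% interval from limma with the pool as a block (squares, filled where the adjusted p was under 0.05) and as the difference in each pool (coloured symbols). Kcnk4 lies above 0 in 4 of 4 pools, and in Kcnk13 the VP2.2 symbol lies at -0.04, apart from the other pools at -4.05 to -2.75.

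Like Kcnk13, the microglia markers had lower means in TRAP than in INPUT. The 5 microglia markers summed to 22.7 to 31.5 CPM in TRAP and 79.8 to 126 CPM in INPUT. Their log2 fold changes ran from -5.15 (Tmem119) through -3.01 (C1qb), -2.41 (P2ry12) and -1.97 (Cx3cr1) to -0.49 (Csf1r, adjusted p from limma 0.19). That of Kcnk13, -2.40, lies within this wide range. It lies also within the range of the oligodendrocyte markers, from -2.54 (Mog) to 0.61 (Mag). Of the defining markers Cx3cr1 (the fractalkine receptor) and P2ry12 (a purinergic receptor), neither was at 0 in TRAP, with 4.49 to 9.48 CPM of Cx3cr1 and 4.86 to 7.41 CPM of P2ry12. TRAP VP2.2, the TRAP library highest in Kcnk13, also had the highest microglia sum in TRAP (31.5 against 22.7 to 27.3 CPM), the highest astrocyte sum (253 against 150 to 164 CPM) and the highest oligodendrocyte sum (1631 against 900.1 to 1127 CPM). In TRAP VP2.2 these sums remained below every INPUT library, where the lowest were 79.8, 343 and 3506 CPM, whereas Kcnk13 was close to the level of INPUT. Other lists set the same library apart: its sums of GABAergic (1623 CPM), cholinergic (143 CPM) and oligodendrocyte precursor markers (52.2 CPM) were above every other library of either fraction. Its striatal sum (471 CPM) was the highest and its glutamatergic sum (264 CPM) the lowest in TRAP. The INPUT library of the same pool also stood at the ends. Its GABAergic (763 CPM) and cholinergic sums (58.8 CPM) were below every other library of either fraction. In INPUT its glutamatergic (41.1 CPM) and precursor sums (31.1 CPM) were the lowest and its oligodendrocyte sum (3807 CPM) the highest. Whether TRAP or INPUT of VP2.2 deviated was not tested. In the TRAP libraries other than VP2.2 the order of Kcnk13 and the microglia sum was opposite. Kcnk13 was at 0.787, 0.676 and 0.259 CPM in VP1.6, VP2.6 and VP2.11, where the microglia sums were 22.7, 24.3 and 27.3 CPM. That order rests on few reads, 11 for Kcnk13 in TRAP VP2.6. It also rests on levels that may carry an adjustment by pool, so nothing is concluded from it. The part of the listed cell types in the difference of Kcnk13 was not tested.

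Set per length, the members fell into an order that had Kcnk1, Kcnk2 and Kcnk3 on top in both fractions. Levels were divided by the length of the exons together, which runs from 2.23 kb in Kcnk1 to 8.77 kb in Kcnk10. In TRAP the mean was 14.2 ± 1.98 CPM per kb for Kcnk1, 6.56 ± 0.63 for Kcnk2 and 2.61 ± 0.15 for Kcnk3 (SD, n = 4 each). Kcnk4 followed at 0.636 ± 0.234, Kcnk13 at 0.431 ± 0.499 and Kcnk10 at 0.240 ± 0.109 CPM per kb. The ranges of Kcnk1, Kcnk2, Kcnk3 and Kcnk4 were apart in TRAP, whereas Kcnk4 and Kcnk13, and Kcnk13 and Kcnk10, overlapped and cannot be ordered. Kcnk13 was above Kcnk10 in TRAP of 2 of 4 pools, and without VP2.2 its mean was 0.184 CPM per kb, the lowest of the 6.

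In INPUT the order was Kcnk1 at 16.7 ± 0.42, Kcnk2 at 8.56 ± 0.52, Kcnk3 at 3.08 ± 0.16, Kcnk13 at 1.44 ± 0.21, Kcnk10 at 0.201 ± 0.043 and Kcnk4 at 0.187 ± 0.058 CPM per kb (SD, n = 4 each). All neighbours were apart in range but Kcnk10 and Kcnk4. Before division by length the mean of Kcnk2 was above that of Kcnk1 in both fractions, so the leading place depends on the scale. In TRAP these means were close (32.4 and 31.7 CPM), and without VP2.11 Kcnk1 was above Kcnk2. Among the 14249 genes tested, Kcnk1 was at percentile 78.0 of the level per kb in TRAP, Kcnk2 at 63.0 and Kcnk3 at 41.6. Kcnk4 was at 13.5 and Kcnk10 at 3.69, in the low part of the transcripts listed.

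**Figure D3:**
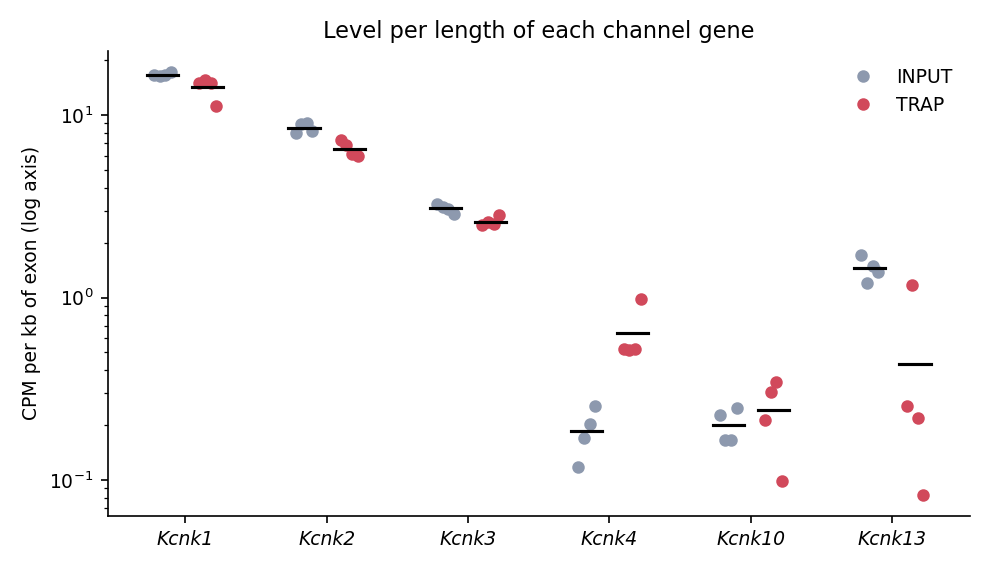
Level of each K2P gene in CPM per kb of exon (vertical axis, log scale) in 4 INPUT and 4 TRAP libraries (points, from left to right VP1.6, VP2.2, VP2.6, VP2.11), with the mean as a black line. Kcnk1, Kcnk2 and Kcnk3 form descending steps in both fractions, and the TRAP points of Kcnk13 (mean 0.431 CPM per kb) overlap those of Kcnk4 (0.636) and of Kcnk10 (0.240).

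As a share of the K2P transcripts listed, on the same scale per kb, the mix was much alike in both fractions. Kcnk1 made up 57.3 ± 3.17% in TRAP and 55.3 ± 1.36% in INPUT, and Kcnk2 26.7 ± 1.83% and 28.4 ± 1.66% (SD, n = 4 each). Kcnk3 made up 10.7 ± 1.77% and 10.2 ± 0.58%. These differences are within the spread between libraries. The minor members moved more: Kcnk4 was 2.68 ± 1.33% in TRAP and 0.618 ± 0.189% in INPUT, and Kcnk13 was 1.65 ± 1.82% and 4.79 ± 0.70%. The TRAP share of Kcnk13 rests on VP2.2, at 4.35%, against 0.393 to 0.982% in the other pools. The 6 members summed to 24.6 ± 2.49 CPM per kb in TRAP, from 21.2 to 27.0, and to 30.1 ± 0.24 CPM per kb in INPUT, from 29.9 to 30.5, so TRAP lay below INPUT in every library.

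For the members called, the genes of closest pattern over the 8 libraries were found by the root mean square distance between log2 levels, each centred on its own mean. For Kcnk4 these were Ntsr1 (a neurotensin receptor) at 0.13, Rtp1 (a chaperone of odorant receptors) at 0.15 and Ctdp1 (a phosphatase of RNA polymerase II) at 0.17. Their log2 fold changes were 1.80, 1.57 and 1.69, beside 1.76 for Kcnk4, and Rtp1 did not pass the test (adjusted p from limma 0.068). For Kcnk13 they were the unnamed genes Gm15496 at 0.22, 4930480K23Rik at 0.27 and Gm6900 at 0.30, with log2 fold changes of -2.58, -2.63 and -2.36.

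Among the proteins that bind K2P channels or carry them to and from the surface, 17 of 18 listed genes have a row, 4 were higher and 2 lower in TRAP, and 11 did not pass the test. The 35.3% called is near the 32.2% of all genes. Copb1, a coat protein of retrograde transport that binds TREK-1 and TASK channels, had the largest difference, with 147 ± 28.5 CPM in TRAP and 48.4 ± 9.16 CPM in INPUT (SD, n = 4 each). Its log2 fold change was 1.602 (adjusted p from limma 0.00015). Sort1, the sorting receptor sortilin that brings TREK-1 to the surface, rose by 1.12 on the log2 scale (adjusted p 0.0014), and Ywhag, one of the 14-3-3 proteins that bind TASK channels, by 1.04 (0.0032). Arf6, the small GTPase for endosomal cycling of TWIK-1, fell by 1.09 on the log2 scale (adjusted p 0.0035), and its exchange factor Psd fell by 0.95 (0.0064). The list's median log2 fold change was 0.25, against -0.05 over all genes tested.

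Gq-coupled receptors close TASK and TREK channels through phospholipase C. Of 21 genes listed for this pathway 19 have a row, 5 were higher and 0 lower with the block, and 7 higher and 1 lower without it. The 26.3% called with the block is below the 32.2% of all genes, so the list does not stand out by its number of calls. Both phospholipase genes called were higher, Plcb4 with a log2 fold change of 1.91 (223 ± 8.25 CPM in TRAP, 62.1 ± 19.7 in INPUT, SD, n = 4 each, adjusted p from limma 8.5e-05) and Plcb1 with 1.62 (0.00024). Among the receptors called were Adra1a (adrenergic, 1.452) and Htr2c (serotonin, 0.81), with adjusted p of 0.0042 and 0.021. The G protein subunit Gnaq itself differed by 0.09 on the log2 scale (adjusted p 0.79). The median over the list was 0.37.

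The depolarizing leak that opposes K2P current is carried by the sodium leak channel Nalcn with its subunits. The list holds 4 genes, all with a row (Fam155a is also known as Nalf1), and 2 were higher in TRAP, where 15.4% of all genes were. These were Unc80, a scaffold subunit, by 0.96 on the log2 scale (adjusted p from limma 0.011), and Nalcn, the pore, by 0.93 (0.014). Nalcn had 61.4 ± 11.7 CPM in TRAP and 32.9 ± 9.09 CPM in INPUT (SD, n = 4 each). Genes with longer exons tended to have higher log2 fold changes (Spearman's rho 0.41 over all genes tested, given with no p because genes are not replicates), and with that trend taken out neither gene was called. Of the K2P members, Kcnk1, Kcnk2, Kcnk3 and Kcnk13 had negative log2 fold changes in the fit with the block and the length trend left in. Those of Kcnk4 (1.76) and Kcnk10 (0.14) were positive. The difference between the K2P members and Nalcn was not tested.

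**Figure D4:**
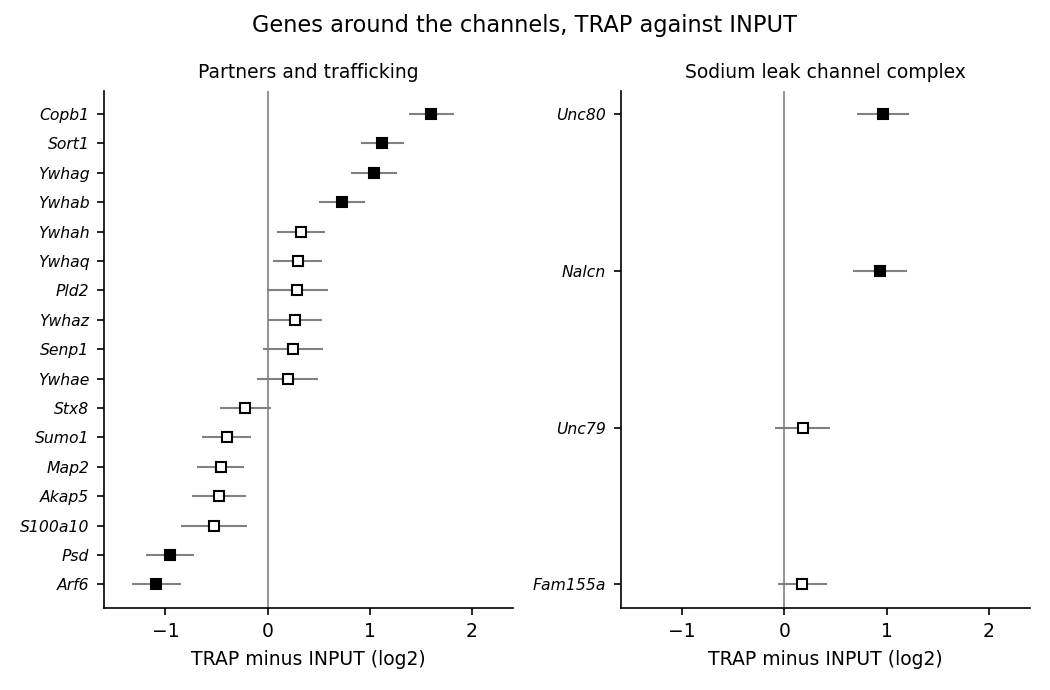
TRAP minus INPUT log2 fold change (horizontal axis) of genes of K2P partners and trafficking and of the sodium leak channel complex, each with its standard error from limma with the pool as a block (filled where the adjusted p was under 0.05). Copb1 at 1.602 and Arf6 at -1.09 mark the ends of the partner list, and Unc80 at 0.96 and Nalcn at 0.93 lie highest in the other.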

How the data were processed

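RNA was taken from pooled ventral pallidum, as 1 TRAP and 1 INPUT library for each of 4 pools. The authors aligned single-end reads with STAR (version 2.5.1a per the labels), counted unique reads per gene, computed TMM size factors and left out low genes, and deposited log2 CPM values per gene and library, with no counts. Columns of the authors' own comparisons (fold changes, limits and p-values) were not used. Of 14398 entries, 45 repeats were removed, and 14249 of 14353 genes, those with more than 1 CPM in 3 or more libraries, entered the test.

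TRAP and INPUT were compared with limma 3.58.1 in R 4.3.3 (trended empirical Bayes moderation, Benjamini-Hochberg adjustment over all genes tested, threshold 0.05), with the pool as a block, since both fractions came from the same homogenate. Deviations of the same pool's libraries from the fraction means correlated at -0.75 to -0.49, and those of different pools at 0.05 to 0.44. Libraries of a pool thus deviated in opposite directions, so SDs between libraries and p-values without the block may rest on values adjusted by pool, a step not given in the sources used here. The fit without the block was an alternative. P-values rest on the spread of within-pool differences, which the moderation draws toward that of genes of similar level. From the 4 differences alone, the standard error of their mean is the SD divided by the square root of 4. In Kcnk3 the SD was 0.15 and limma's standard error 0.27, and in Kcnk2 0.18 and 0.22, so moderation raised the error of both. In Kcnk13 the SD was 1.69 and limma's standard error 0.63, so moderation lowered it. In Kcnk2 and Kcnk3 every pool had a negative difference, so the missing call is not a disagreement in direction. Gene coordinates, exon lengths and coding sequences came from GENCODE M21 (GRCm38), in which all 14353 genes were matched by identifier. Reads in low genes were sought as whole-read steps of within-pool differences (tolerance 1e-06 on the log2 scale), found for 83.7% of 2387 low genes in VP2.2 and 86.9% of 2565 in VP2.6.

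The members and lists were chosen with earlier results of these data known. Named genes were all members with a row, per list the called genes of largest absolute log2 fold change (at most 5), marker genes as stated, and the 3 genes of closest pattern to each called member. Gnaq, Gna11 and the markers Tmem119, C1qb, Csf1r, Gad2, Aldh1l1 and Mag were named after their values were seen. Some items are not reported here.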

Additional observations from a re-analysis of the deposited data

Results flagged for a closer look

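The 6 members gave 12 groups of 4 libraries, and in 2 of them 1 library stood farther from the others than Dixon's critical value for 4 samples allows, where chance gives about 1 in 20 groups. Both were TRAP VP2.11. Kcnk1 was at 4.65 log2 CPM there, against 5.07 to 5.12 in the other TRAP libraries. Kcnk4 was at 2.14 log2 CPM, against 1.196 to 1.223. The level of Kcnk1 was low and that of Kcnk4 high in the same library. Without VP2.11 the log2 fold change of Kcnk1 was -0.12 and that of Kcnk4 was 1.70. These distances rest on levels that may have been adjusted by pool.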

How the results depend on the processing

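The fold changes of the 6 members and the counts of all genes, of members and of the partner, Gq and sodium leak lists were recomputed under 12 alternatives, and marker lists and other single genes were not. Without the block for pools, 3300 genes were higher in TRAP against 2199, and the members lower in TRAP numbered 2 against 1. Leaving out each pool in turn left 0 members called higher each time, against 1, and 2 to 4 partner genes called lower, 4 without VP2.2, as also with array weights. In the Gq list 1 gene was lower without the block, with quantile normalization and with the exon length trend taken out. In the sodium leak list 0 genes were higher with that trend out or with no trend in the variance. The log2 fold change of Kcnk1 turned to 0.054 with the length trend out, and that of Kcnk10 to -0.20, and to -0.18 to 0.62 as each pool was left out. Before division by length, Kcnk1 took place 2 and Kcnk2 place 1 in both fractions, and Kcnk10 took place 5 and Kcnk13 place 6 in TRAP. In TRAP, leaving out VP2.11 put Kcnk1 back above Kcnk2. The cause of these shifts was not tested. Few reads limit Kcnk4, Kcnk10 and Kcnk13.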
